A study of Homo sapiens with 15 samples.

Results

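Some stretches of the genome collect many Pt-exo-seq reads even when the cells have received no cisplatin. These background hot windows were defined as 1 kb windows on chromosomes 1 to 22 with a mean of at least 1.0 CPM (reads in the window per 1 M reads counted in that library, where M is mega) over the 6 untreated libraries. They numbered 18290, which is 0.571% of the 3201158 autosomal windows and part of the 3439652 windows in the whole table. They were chosen by the untreated values, so their untreated levels are described without a test, and the values that the rule did not use are those of the 9 libraries from cisplatin-treated cells. Just inside the limit stood windows at 1.0000216 and 1.0000321 CPM, and just outside it windows at 0.9999812 and 0.9999771 CPM, so the limit divided a continuous range. Untreated counts varied widely between libraries at this level: the nearest window inside the limit, on chromosome 11, held 10 to 82 reads.

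Pt-exo-seq maps cisplatin adducts by digesting sheared, adapter-ligated DNA with exonucleases that are halted where platinum is bound. Fragments without platinum can also enter the libraries. In sequencing generally, read depth can follow the number of copies of a stretch, how easily it is amplified and how well short reads can be placed on it. In cancer cell lines copies differ widely between chromosome arms, and stretches missing or collapsed in the reference genome can gather reads from several places. The libraries came from PEO1 and PEO4, a pair of established ovarian cancer lines, of which PEO1 is labelled sensitive to platinum and PEO4 resistant. Each line was untreated or given 16 µM cisplatin, and PEO4 was also given 32 µM, with 3 libraries in each of the 5 groups. The labels do not say that replicates were separate cultures, so p-values measure the spread between these libraries, which may be technical.

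Total counts ranged from 27.7 M to 56.6 M per library (median 33.1 M), and the median autosomal window held 0.185 to 0.254 CPM. The hot windows took 1.66% to 2.45% of all counts of a library. Libraries differed in the level of GC-rich windows relative to GC-poor ones. The ratio taken was mean CPM in windows of 50% GC or more, divided by that in windows under 38% GC. It ranged from 0.692 in replicate 1 of untreated PEO1 to 1.65 in replicate 1 of PEO1 at 16 µM. The 3 untreated PEO4 libraries had ratios of 1.201 to 1.513, and the 3 untreated PEO1 libraries 0.692 to 1.11. Within PEO4 at 16 µM the ratio was 0.754 in replicate 1 against 1.45 and 1.30 in the others. Its part in the differences given here was not tested, except where a correction for GC content is named.

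The middle 300 bases of the hottest window and of the hottest on chromosome 17 are printed to show what such stretches look like, 5′ to 3′ on the plus strand of GRCh37, with GG and CC, the neighbouring guanines to which cisplatin binds most often and their complement, in capitals. The first lies in an intron of NGB, which encodes neuroglobin, and holds a CT repeat of 54 bases and a run of 29 C. The other lies between genes on the long arm of chromosome 17 and has no run of 1 base longer than 5. The capitals cover 73 and 78 of the 300 bases.
NGB intron, chr14:77736050-77736349: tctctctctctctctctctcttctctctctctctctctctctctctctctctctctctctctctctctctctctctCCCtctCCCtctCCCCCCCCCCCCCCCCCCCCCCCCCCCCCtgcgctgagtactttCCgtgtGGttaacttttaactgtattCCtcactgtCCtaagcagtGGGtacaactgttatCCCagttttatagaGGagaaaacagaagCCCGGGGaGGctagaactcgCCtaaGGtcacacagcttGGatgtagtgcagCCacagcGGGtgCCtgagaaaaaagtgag
chromosome 17 intergenic, chr17:41400350-41400649: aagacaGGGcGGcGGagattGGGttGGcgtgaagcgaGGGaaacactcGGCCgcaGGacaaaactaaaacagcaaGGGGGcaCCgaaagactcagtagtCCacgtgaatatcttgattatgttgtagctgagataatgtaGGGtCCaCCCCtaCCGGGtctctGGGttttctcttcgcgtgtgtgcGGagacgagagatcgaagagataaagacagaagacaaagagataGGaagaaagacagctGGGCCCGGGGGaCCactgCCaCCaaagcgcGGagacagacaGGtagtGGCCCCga

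One more stretch shows a tandem repeat, chosen as the window with the highest tandem match among those of at least 3 CPM. It lies between genes on chromosome 15, in the window at 20546100 to 20547100 (GRCh37), where 68% of bases equalled the base 26 positions before. Its capitals mark bases equal to the base 26 positions upstream, 229 of 300.
chromosome 15 tandem repeat, chr15:20546518-20546817: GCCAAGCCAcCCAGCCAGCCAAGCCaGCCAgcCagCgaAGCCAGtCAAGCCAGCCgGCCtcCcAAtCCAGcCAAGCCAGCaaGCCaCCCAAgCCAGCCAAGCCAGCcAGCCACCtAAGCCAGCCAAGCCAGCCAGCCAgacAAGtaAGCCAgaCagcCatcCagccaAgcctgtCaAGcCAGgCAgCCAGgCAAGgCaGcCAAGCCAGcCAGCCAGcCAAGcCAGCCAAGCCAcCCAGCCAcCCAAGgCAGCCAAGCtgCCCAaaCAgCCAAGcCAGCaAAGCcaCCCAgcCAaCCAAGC
The window held 3.497, 4.38 and 4.47 CPM in untreated PEO1 and 2.70, 2.59 and 2.45 CPM in untreated PEO4. With cisplatin it held 7.05, 4.95 and 5.49 CPM in PEO1 and 2.013 to 4.13 CPM in the 6 PEO4 libraries. The lines did not overlap in either condition, and PEO1 was the higher in both.

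Long runs and repeats were rare among hot windows. These features were searched after the printed stretches were seen, on both strands and allowing any longer run. A run of at least 12 C or G stood in 39 of 18290 hot windows (0.213%), against 0.109% of all autosomal windows, and in 7 of the 308 hot windows of at least 2 CPM (2.27%). A CT or GA repeat of at least 20 bases stood in 0.574% of hot windows and 0.417% of all windows, and in 5 of those 308 (1.62%). A run of at least 20 A or T stood in 6.13% and 5.34%, and in 6 of the 308 hottest (1.95%). The satellite motif CATTC repeated in tandem stood in 0.377% of hot windows and 0.376% of all windows, and the telomere motif TTAGGG repeated in tandem in 0.0273% and 0.0248%. Median GC content was 42.6% in hot windows and 40.0% in all windows, and GG plus CC made up a median of 11.1 and 9.79 per 100 bases. By position, 58.4% of hot windows were intronic and 34.4% intergenic, against 50.1% and 43.3% of all windows, and promoters held 1.82% against 1.83%. Outside chromosome 8, promoters held 2.29% of hot windows against 1.84% of all windows, and exons 3.61% against 2.80%. Intronic windows made up 58.1% against 49.9% there, and intergenic windows 32.6% against 43.5%. All windows here include those inside assembly gaps, which hold no known bases. These count as intergenic where no gene spans them, which raises the intergenic share of all windows and lowers the other shares. The shares without them were not computed.

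Few hot windows had a copy elsewhere in the reference. An alignment of at least 500 bases with 90% identity elsewhere in GRCh37 was found for 454 hot windows (2.48%), against 1703 of 32012 (5.32%) among every 100th autosomal window. The share grew with the level: 1.77% of windows from 1 to 1.2 CPM, 5.54% from 1.5 to 2 CPM and 10.8% from 2 to 3 CPM, although only 2 of the 31 windows of 3 CPM or more had a copy. The hottest windows also lay nearer to assembly gaps than hot windows as a whole. Of those at 2 CPM or more, 30.8% lay within 1 Mb of a gap of 50 kb or more and 10.1% within 2 Mb of a centromere gap. For all hot windows the shares were 13.2% and 1.85%, and for all autosomal windows 15.5% and 8.68%. The shares of all autosomal windows count the windows inside these gaps, which hold no known bases, and are raised by them. Shares without such windows were not computed, so whether hot windows lay nearer to or farther from gaps than other sequence cannot be read from these values.

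By chromosome arm the hot windows were concentrated far more than the genome. The long arm of chromosome 8 held 8832 of them, 48.3% of the total and 7.75% of that arm's windows. The long arm of chromosome 17 followed with 2059 (3.14% of its windows), then the short arm of chromosome 4 with 957 (1.73%), 11q with 919 (0.992%), 3q with 814 (0.681%) and 15q with 508 (0.446%). The other arms of the same chromosomes could be almost free of them: 8p held 74 and 17p none of its 24737 windows, and 13q held 5 of 127967. A long arm was counted from the start of its centromere gap, so gap windows without known bases are among its windows. On chromosomes 13 and 15 all windows counted as long arm. Such gap windows lower an arm's share and mean CPM. The arms rich in hot windows also mostly had a high level over all of their windows. Mean untreated CPM per window on 8q was 0.457 ± 0.00631 (SD, n = 3) in PEO1 and 0.615 ± 0.00623 in PEO4, compared with 0.313 and 0.304 on 8p and 0.148 and 0.139 on 13q.

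**Figure D1:**
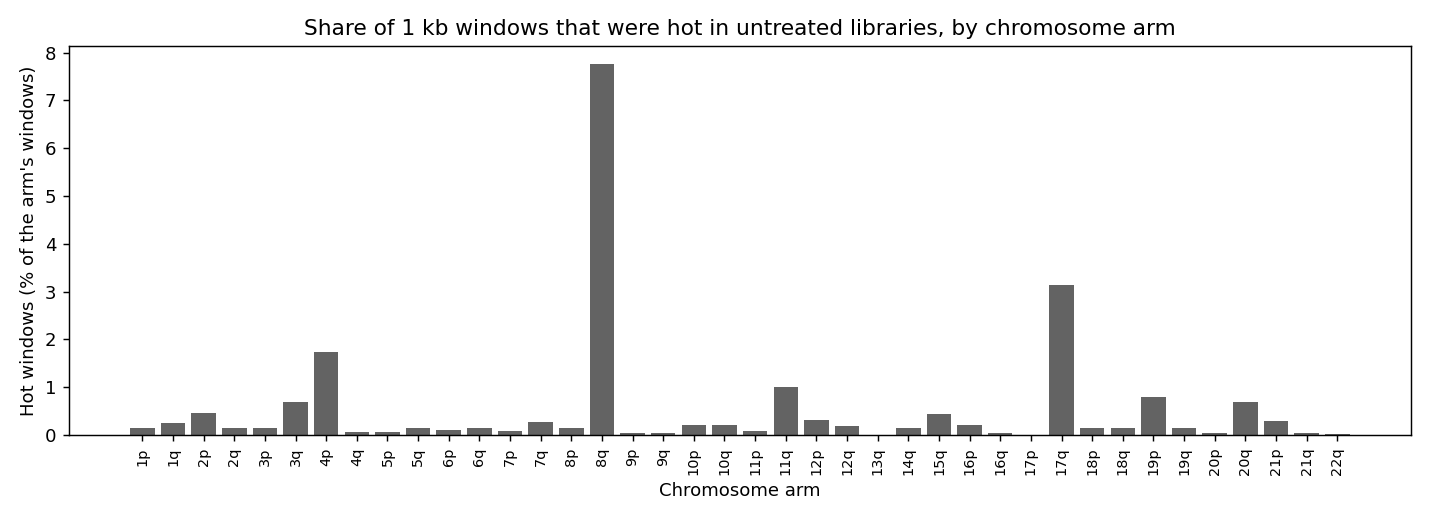
Percent of the 1 kb windows of each chromosome arm (x axis, arms p and q of chromosomes 1 to 22) that were hot in untreated libraries (y axis). The bar of 8q stands at 7.75%, that of 17q at 3.14% and that of 4p at 1.73%, and all other arms are below 1%.

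Hot windows ranged from those in broad regions of high level to those with no other nearby. Of the 4966 bins of 100 kb with any hot window, 514 held at least 10, and these dense bins together held 10508 hot windows (57.5%), while 2992 bins held 1. Dense bins lay mostly on chromosome 8 (390), chromosome 17 (88) and chromosome 4 (13). Inside them the local level, the mean of up to 55 windows on each side without the nearest ones, had a median of 0.789 CPM, and a hot window exceeded it by a median of only 1.48 times. Outside them the local level was 0.467 CPM and the median ratio 2.48 times. Most hot windows had no hot neighbour: 14.2% were followed by another, 12.8% had one 10 windows on and 11.5% had one 100 windows on. These shares were nevertheless far above the 0.571% of all autosomal windows that were hot. Of the 15687 runs of consecutive hot windows, 13771 were single windows and 45 had 5 windows or more.

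**Figure D2:**
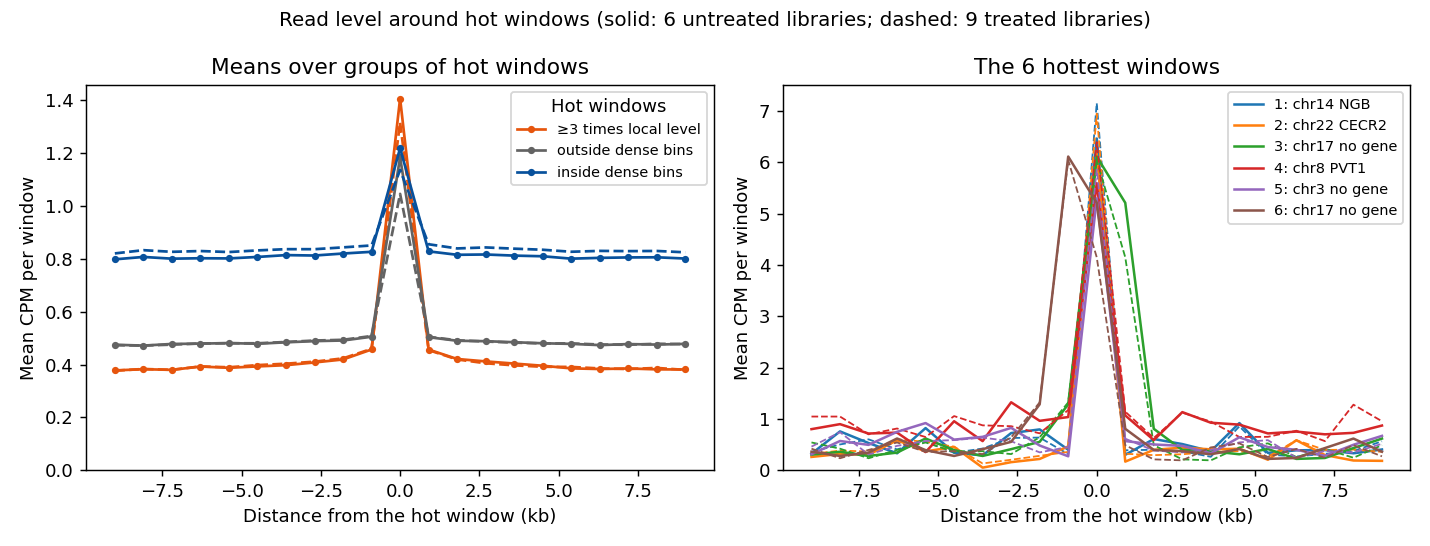
Mean CPM per window (y axis) against distance from a hot window in kb (x axis), for hot windows inside dense bins, outside them, and at 3 or more times the local level (left) and the 6 hottest windows (right), over the 6 untreated libraries (solid) and the 9 treated libraries (dashed). The step at the hot window is 1 window wide in each group, on a level near 0.8 CPM inside dense bins and near 0.5 CPM or less in the other groups, and the chromosome 17 pair are neighbouring windows.

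The 10 hottest windows, which had 4.07 to 6.46 CPM, were peaks 1 window wide, except for a pair of neighbours on chromosome 17. None had a copy elsewhere in the reference at the limits above. The NGB window, at chr14:77735700-77736700, held 4.50, 4.35 and 5.43 CPM in untreated PEO1 and 8.33, 7.25 and 8.93 CPM in untreated PEO4. With 16 µM cisplatin it held 9.60, 5.14 and 5.36 CPM in PEO1 and 5.88, 11.5 and 8.03 CPM in PEO4, and with 32 µM 7.88, 4.98 and 6.03 CPM in PEO4. The lines stood apart without treatment and overlapped with it, and the mean level was 16.0 times the local level in untreated and 18.2 times in treated libraries. Its neighbours on either side held only 0.399 and 0.301 CPM.

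The CECR2 window, in an intron of a chromatin remodelling gene at chr22:18003600-18004600, held 3.90 to 5.17 CPM in untreated PEO1, 4.41 to 11.2 CPM in untreated PEO4, 4.48 to 10.4 CPM in treated PEO1 and 3.65 to 10.6 CPM in treated PEO4, so its groups overlapped. The intergenic pair on chromosome 17 began at 41400000, 27.9 kb from TMEM106A. Its first window held 4.33 to 6.66 CPM in untreated PEO1, 5.02 to 7.50 CPM in untreated PEO4 and 4.17 to 7.30 CPM over the 9 treated libraries. Both windows were thus several times above the rest of the genome in each of the 15 libraries.

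The other windows of the 10 lay in the long noncoding RNA gene PVT1 (5.59 CPM), at the promoter of TSPEAR (4.90 CPM), in an intron of LAMA5, which encodes a laminin chain of basement membranes (4.09 CPM), and between genes on chromosomes 3, 8 and 20 (5.30, 4.44 and 4.07 CPM). Over the 15 libraries the lowest value of any of the 10 was 1.24 CPM, in 1 untreated PEO1 library for the chromosome 3 window, and the highest 11.5 CPM. In the treated libraries their means were 4.15 to 7.15 CPM, and in 7 of the 10 the treated mean was above the untreated one, a count that was also 7 with the lines weighted equally.

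**Figure D3:**
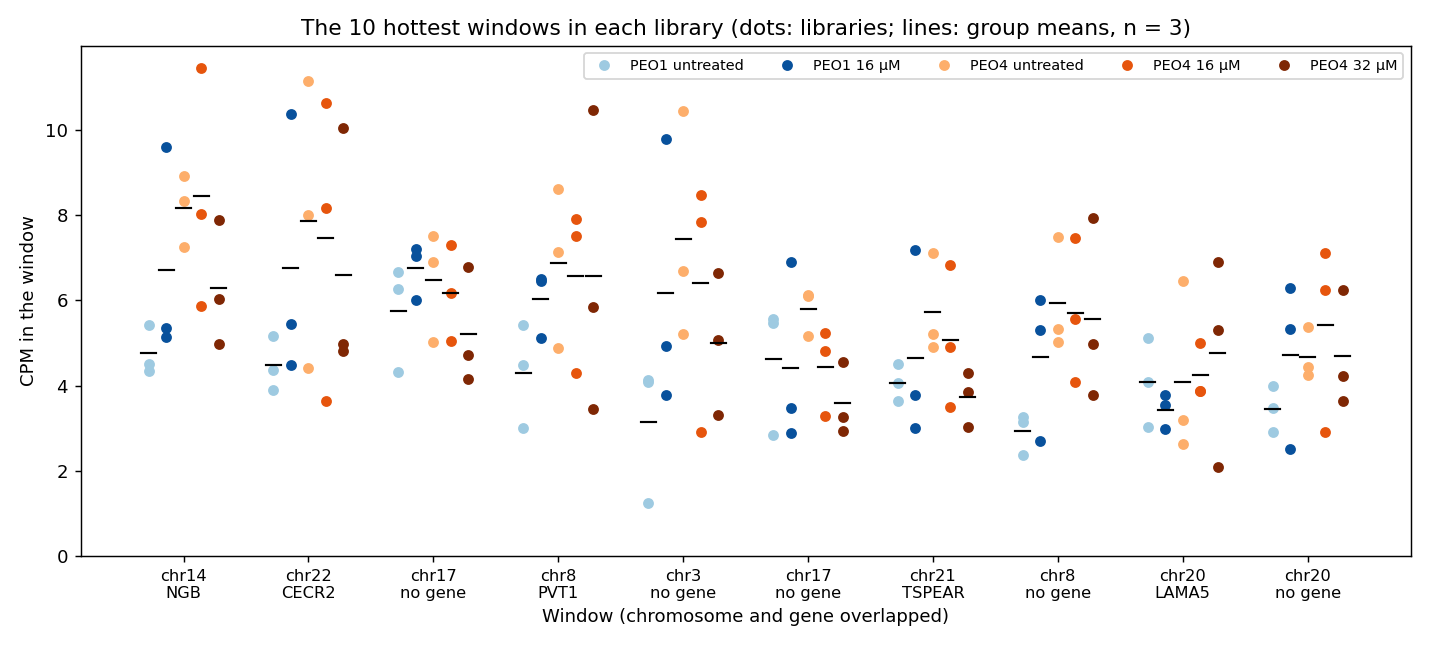
CPM (y axis) of the 10 hottest windows (x axis, by chromosome and overlapping gene) in each library, coloured by group; short lines are group means (n = 3). All but 1 of the values are above 2 CPM, and the groups overlap in most windows.

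The longest runs lay in a few places. A run of 38 windows on chromosome 1, from 144999000 to 145033300, lay in PDE4DIP, which encodes a scaffold protein of the centrosome and Golgi. Its mean was 1.70 ± 0.0897 CPM (SD, n = 3) in untreated PEO1 and 1.52 ± 0.0861 in untreated PEO4, and 1.51 ± 0.126, 1.496 ± 0.109 and 1.503 ± 0.102 in PEO1 at 16 µM and PEO4 at 16 and 32 µM. A further run of 10 windows lay just before it in the same gene. The second longest, 17 windows near the tip of chromosome 4 in the zinc finger gene ZNF595, held 1.80 ± 0.184 CPM in untreated PEO1 and 1.86 ± 0.0917 in untreated PEO4, and 1.71 to 1.88 CPM as means of the treated groups. The PDE4DIP run was thus alike in the treated groups, and the ZNF595 run in all of them, to about the spread between libraries.

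Of the 8 other long runs, 4 lay close together on chromosome 2 between 91766700 and 91821700, in the noncoding genes LSP1P5 and ENSG00000261600. These 4 differed from the rest in their sequence, since 14 of 14, 10 of 12, 11 of 11 and 8 of 8 windows had a copy elsewhere in the reference, compared with 1 of the 17 windows at ZNF595 and none at PDE4DIP. A pair of runs of 12 and 9 windows on chromosome 8 lay 72.9 and 86.4 kb from ANGPT1, which encodes a ligand of the receptor TIE2. The longer held 1.10 ± 0.114 CPM in untreated PEO1 and 1.90 ± 0.228 in untreated PEO4, then 1.39 ± 0.0915 in PEO1 at 16 µM and 2.00 ± 0.135 and 1.71 ± 0.411 in PEO4 at 16 and 32 µM. The shorter held 1.403 ± 0.1996 and 2.11 ± 0.0256 CPM in untreated PEO1 and PEO4, then 1.72 ± 0.184 in PEO1 at 16 µM and 1.97 ± 0.0568 and 2.04 ± 0.540 in PEO4. In both runs the lines stood apart without treatment, while PEO4 at 32 µM overlapped treated PEO1. The last, of 11 windows, lay in KMT2C, a histone methyltransferase gene, at 1.64 ± 0.0954 and 1.69 ± 0.169 CPM without treatment.

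Adjacent dense bins formed 60 domains, of which 31 lay on chromosome 8, 10 on chromosome 4 and 4 on chromosome 17, and 29 were a single bin. The 2 largest, both on 8q, held 6427 hot windows between them. The first spanned 115800001 to 136100000 (20.3 Mb), had 4559 hot windows among its 22555 (20.2%) and covered 68 protein-coding genes, with most hot windows in ASAP1, which encodes a regulator of Arf GTPases (122), and SAMD12 (98). The second, from 97200001 to 105000000, had 1868 (21.6%), with most in VPS13B, which encodes a lipid transfer protein of the Golgi (175), and the Hippo pathway kinase gene STK3 (136). The domains of 17q, between 72300001 and 81100000, had 1153, 406 and 229 hot windows, most often in RBFOX3, a neuronal splicing factor gene (75), RPTOR, a subunit gene of the growth-regulating complex mTORC1 (80), and TBCD, a tubulin folding factor gene (33). Mean GC content of hot windows was 50.9% to 52.6% in these 17q domains, and 41.5% and 41.9% in the 2 on 8q.

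In untreated cells the domains mostly favoured PEO4, and 52 of 60 had the higher mean there. These are the values that chose the hot windows, of which 8168 reached 1.0 CPM in PEO4 alone and 3202 in PEO1 alone. The count was thus favoured by the choice and is given without a test. In the largest 8q domain the mean CPM per window was 0.738, 0.715 and 0.717 in untreated PEO1 and 0.862, 0.877 and 0.863 in untreated PEO4. With cisplatin it was 0.692, 0.713 and 0.715 in PEO1, 0.915, 0.869 and 0.869 in PEO4 at 16 µM and 0.867, 0.868 and 0.884 in PEO4 at 32 µM. Each treated PEO4 library stood above each treated PEO1 library. The log2 difference of PEO4 from PEO1 was 0.26 without treatment and 0.31 among treated libraries (exact two-sided permutation test of 3 against 6 libraries, p = 0.0238, the smallest these numbers allow). Here and in the other domain tests the 6 PEO4 libraries pool 16 and 32 µM, whereas the 3 PEO1 libraries all had 16 µM. With either PEO4 dose alone the smallest p of this permutation test over the named domains was 0.1.

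The largest 17q domain held 0.458, 0.575 and 0.566 CPM per window in untreated PEO1 and 1.07, 0.986 and 1.11 in untreated PEO4. With cisplatin it held 0.724, 0.527 and 0.532 in PEO1, 0.731, 1.05 and 1.03 in PEO4 at 16 µM and 1.07, 0.802 and 0.851 in PEO4 at 32 µM. The lowest PEO4 library and the highest PEO1 library, both replicate 1 at 16 µM, nearly met. These libraries had the lowest ratio of GC-rich to GC-poor windows in PEO4 and the highest of all 15. The log2 difference between lines was 0.99 without treatment and 0.64 with it (exact permutation p = 0.0238). Without replicate 1 of PEO1 the treated difference was 0.79, and without replicate 1 of PEO4 at 16 µM it was 0.70. In the RPTOR and TBCD domains the treated differences were 0.59 and 0.59 (exact permutation p = 0.0476 for each) against 1.06 and 1.06 without treatment, and in both replicate 1 of PEO1 overlapped PEO4.

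Among domains of at least 20 hot windows, untreated PEO4 exceeded untreated PEO1 most in 3 domains of distal 8q at 142800001 to 143000000, 140600001 to 140900000 and 141200001 to 142700000, with log2 differences of 1.31, 1.205 and 1.197. The third holds PTK2, the focal adhesion kinase gene (57 hot windows). In the treated libraries the differences were 1.00, 0.93 and 0.87 (exact permutation p = 0.0238 for each), with means in the third of 0.514 ± 0.0768 CPM per window in PEO1 (SD, n = 3), 0.940 ± 0.118 in PEO4 at 16 µM and 0.940 ± 0.105 at 32 µM. The opposite direction was found on chromosomes 15 and 3. The domain at 20400001 to 20700000 of chromosome 15, which contains the tandem repeat shown above and no protein-coding gene, held 0.762, 0.802 and 0.816 CPM per window in untreated PEO1 and 0.508, 0.487 and 0.509 in untreated PEO4. In treated cells it held 0.826, 0.767 and 0.804 in PEO1 and 0.450 to 0.493 in PEO4, a log2 difference of -0.75 (exact permutation p = 0.0238).

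The domains at TNIK and at PHC3, a Polycomb gene, on 3q were also lower in PEO4, by log2 differences of -0.58 and -0.46 without treatment and -0.53 and -0.49 with it (exact permutation p = 0.0238 for each). The PDE4DIP domain was near equal, at -0.13 and -0.10 (exact permutation p = 0.0238), with 0.816 ± 0.0157 CPM per window in treated PEO1 and 0.761 ± 0.00576 and 0.757 ± 0.0380 in PEO4 at 16 and 32 µM. The smallest of the 4 remaining treated differences, all on 8q and all higher in PEO4, was 0.38 and the largest 0.51 (exact permutation p = 0.0238 for each). In all 15 domains tested, the direction among treated libraries was that of the untreated libraries. Domains were named with the untreated ratios known, so the treated values are the part that the choice did not use.

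**Figure D4:**
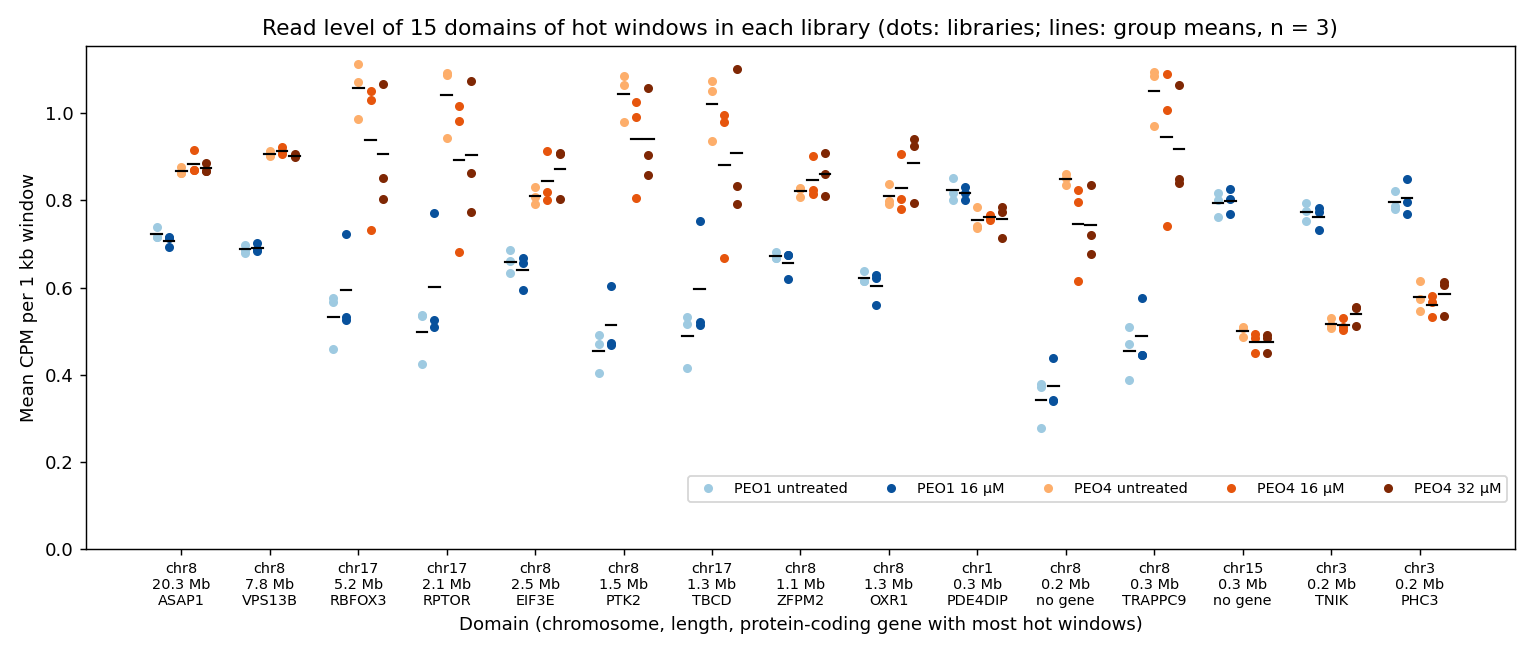
Mean CPM per 1 kb window (y axis) in each library for the 15 named domains (x axis: chromosome, length and protein-coding gene with most hot windows), coloured by group; short lines are group means (n = 3). PEO4 libraries stand above PEO1 on chromosome 8 and in the RBFOX3 domain and overlap with PEO1 in the RPTOR and TBCD domains. They stand below PEO1 on chromosomes 15 and 3 and, with little difference, on chromosome 1.

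The comparison of lines in the treated libraries was also made across all 100 kb bins with edgeR's quasi-likelihood test (Benjamini-Hochberg adjusted p under 0.05 over 28184 bins). At 16 µM in both lines, 383 of the 514 dense bins were higher in PEO4 and 10 lower, that is 74.5% and 1.95%, against 12.1% and 10.1% of all bins tested. With 32 µM in PEO4, set against the same PEO1 libraries, 388 were higher (75.5%) and 11 lower (2.14%), against 12.0% and 10.0% of all bins. The median log2 difference of dense bins was 0.40 and 0.42, and that of all bins -0.01 and -0.01. On chromosome 8, 307 and 314 of 390 dense bins were higher and none lower in the 2 comparisons, and on chromosome 17, 65 and 64 of 88. This direction was not particular to dense bins. Over all windows of 8q, mean CPM was 0.451 in PEO1 at 16 µM and 0.625 and 0.632 in PEO4 at 16 and 32 µM. Over all windows of 17q it was 0.335, 0.449 and 0.439. The share of all bins of these arms that was called was not counted. All 5 dense bins on chromosome 15 and all 5 on chromosome 3 were lower in PEO4. The 2 comparisons share the PEO1 libraries. The untreated values chose the dense bins, and 8168 hot windows reached 1.0 CPM in PEO4 alone against 3202 in PEO1 alone. That choice favoured bins higher in PEO4, so their excess over the share of all bins is not independent of it.

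The dense bin with the highest difference at 16 µM, chromosome 8 from 146000001 to 146100000, holds the ribosomal protein gene RPL8 and the zinc finger genes ZNF34, ZNF517 and ZNF7. Its summed level was 34.9 ± 6.74 CPM (SD, n = 3) in PEO1 at 16 µM and 102 ± 21.1 and 101 ± 16.7 CPM in PEO4 at 16 and 32 µM, with log2 differences of 1.57 ± 0.18 (SE, adjusted p = 2.73e-05) and 1.55 ± 0.18 (adjusted p = 2.92e-05). The lowest at 16 µM, chromosome 15 from 20500001 to 20600000, held 124 ± 4.41 CPM in PEO1 and 70.2 ± 2.33 and 70.9 ± 2.93 CPM in PEO4, with log2 differences of -0.80 ± 0.09 (adjusted p = 1.86e-05) and -0.78 ± 0.09 (adjusted p = 2.13e-05). The bin with most hot windows, 85 at PDE4DIP, differed by -0.05 ± 0.07 at 16 µM (adjusted p = 0.888). With a correction for the GC content of bins in each library, 504 and 505 of the 514 dense bins were called in place of 393 and 399, against 26.5% and 26.7% of all bins tested under that correction.

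**Figure D5:**
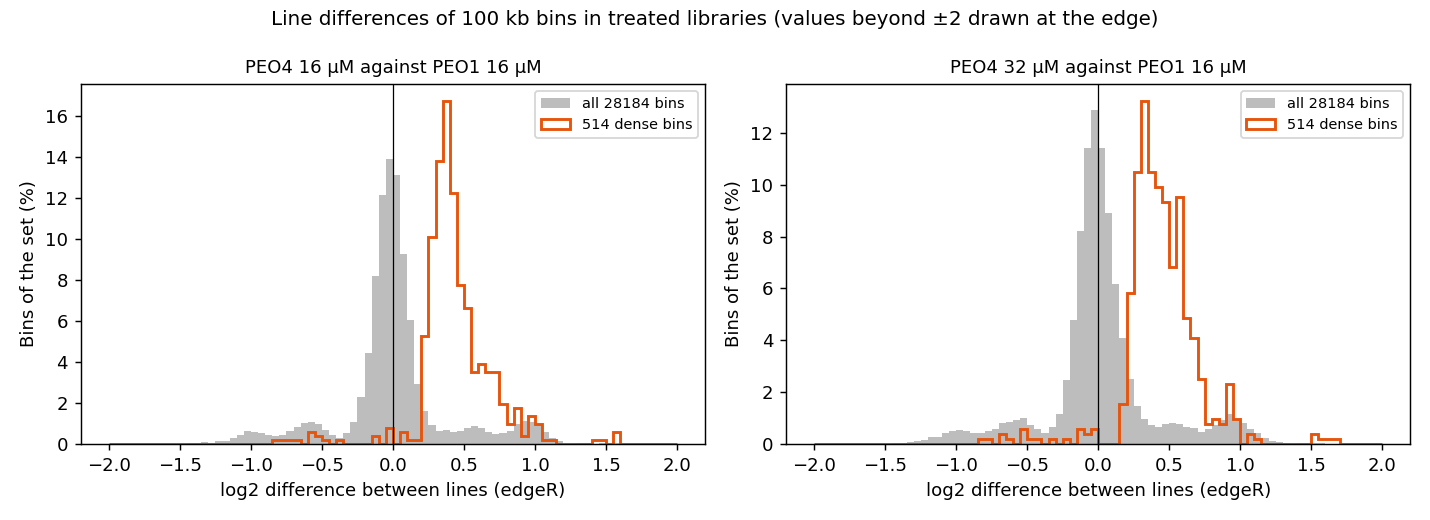
Distribution of log2 differences between lines in treated libraries (x axis; y axis: percent of bins of the set) for all 28184 bins of 100 kb (grey) and the 514 dense bins (orange), with 16 µM (left) or 32 µM (right) in PEO4, PEO1 having had 16 µM. Dense bins centre at 0.40 and 0.42 and all bins at -0.01.

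No dense bin was called between doses. Between PEO4 at 32 and 16 µM edgeR called 0 dense bins, and 0% of all bins, with 0 dense bins and 485 of all bins at an unadjusted p under 0.05. DESeq2's Wald test also called 0 dense bins. The median log2 difference of dense bins was 0.00, with values from -0.21 to 0.23.

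Single hot windows gave almost no calls. With edgeR, 0 hot windows passed an adjusted p under 0.05 in the comparisons of PEO4 at 16 and 32 µM with PEO1, where 3.72e-05% of the 2690803 windows tested were called in each (1 window in each), and 0 passed between PEO4 doses, where 0% were. At an unadjusted p under 0.05 stood 2106, 1833 and 415 hot windows, that is 11.5%, 10.0% and 2.27%, against 3.80%, 4.85% and 2.47% of all windows. DESeq2 called 84 and 146 hot windows in the comparisons with PEO1, of which 74 and 122 were higher in PEO4, against 0.0992% and 0.259% of all windows tested, and 0 between doses. The coefficient of variation between replicates from the fitted dispersion was 0.822 for windows and 0.113 for 100 kb bins. In counts simulated for PEO4 and PEO1 at 16 µM, edgeR recovered 28% of 8-fold and 96% of 32-fold changes of windows. For bins it recovered 63% of 1.5-fold and 100% of 2-fold changes. The simulated windows were drawn from all tested windows. The lack of called hot windows therefore does not show that they were alike between lines. Counted without a test, 1135 hot windows (6.21%) had all 6 treated PEO4 libraries above all 3 treated PEO1 libraries, against 2.06% of the windows compared, and 698 of them lay on chromosome 8. The reverse held for 279 (1.53%), against 1.77%, and 120 of these lay on chromosome 3. As for the dense bins, the choice of hot windows favoured windows higher in PEO4, so these shares are not independent of it.

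Line specificity of hot windows in untreated cells differed between chromosomes. Both lines averaged at least 1.0 CPM in 6920 hot windows (37.8%), only PEO4 in 8168 (44.7%) and only PEO1 in 3202 (17.5%). Of the windows hot in PEO4 alone, 51.2% lay on chromosome 8 and 20.2% on chromosome 17. Of those hot in PEO1 alone, 29.2% lay on chromosome 8 and 18.8% on chromosome 3. Of all hot windows, 48.7% lay on chromosome 8, 11.3% on chromosome 17 and 5.24% on chromosome 3. Chromosome 8 held 54.8% of the windows hot in both lines, and its share in PEO4 alone was near that of all hot windows. The windows of PEO4 alone had a median of 1.41 CPM in untreated PEO4 and 0.822 in untreated PEO1, and in the treated libraries 1.12 and 0.810, with the higher mean in PEO4 in 81.3%. The windows of PEO1 alone had medians of 1.28 in untreated PEO1 and 0.879 in untreated PEO4, and 0.911 and 0.847 when treated. Among them PEO4 had the higher treated mean in 43.6%, compared with 47.9% of all autosomal windows. Both sets were cut on the untreated line means, so their untreated gaps between lines followed from the cut. The smaller gaps in treated libraries are therefore not read as a change with cisplatin. Median GC content was 44.7% in the windows of PEO4 alone and 40.1% in those of PEO1 alone. This stands beside the unequal ratios of GC-rich to GC-poor windows in the untreated libraries given above.

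Hot windows also stood high under cisplatin. Their mean over the 9 treated libraries was at least 1.0 CPM in 10218 (55.9%), against 0.621% of all autosomal windows. In the reverse view, 19864 windows had a treated mean of at least 1.0 CPM, and the same 10218 (51.4%) were hot without treatment. The treated share depended on how hot a window was, at 42.4% for 1 to 1.2 CPM (12010 windows), 76.2% for 1.2 to 1.5 CPM (4672), 96.5% for 1.5 to 2 CPM (1300) and 100% for the 277 from 2 to 3 CPM and the 31 above. That mean holds 6 PEO4 and 3 PEO1 libraries, whereas the untreated mean holds 3 of each. With both lines weighted equally, a setting added after the data were seen, the share was 51.1%, against 0.568% of all autosomal windows. Windows in dense bins passed at 62.7% and others at 46.7%, or 55.5% and 45.2% with equal weights. The treated mean was below the untreated mean in 12679 (69.3%), or in 13549 (74.1%) with equal weights. The rule picked windows for high untreated values, so no test was made of this.

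By library, the share of hot windows at 1 CPM or more was 45.9% to 54.3% in untreated PEO1 and 70.5% to 73.2% in untreated PEO4. With cisplatin it was 40.7% ± 5.17 (SD, n = 3) in PEO1, then 58.6% ± 5.64 and 53.1% ± 3.11 at the lower and higher dose in PEO4. Over all autosomal windows that share was 2.10% to 4.99% in the 15 libraries. Only 313 hot windows reached 1 CPM in each of the 15 libraries, while 344 reached it in no treated library. A hot window was seldom made by 1 library, since the largest library gave a median of 25.9% of the summed untreated CPM, and more than all others together in 2 windows.

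Genes shared the geography of the arms. A hot window had its midpoint in 2500 of 19229 protein-coding genes (13.0%). After VPS13B, most were in ZFPM2, a GATA cofactor gene (155), CSMD3 (139), STK3 (136) and ASAP1 (122). Outside chromosome 8 the highest was PDE4DIP with 89 of its 267 windows (33.3%). Families with many copies differed among themselves, with no test made. Of 13 POTE, 19 NPIP, 14 GOLGA8, 15 GOLGA6, 26 USP17L, 23 PRAMEF and 21 FAM90A genes 0 held a hot window, as did 2 ANKRD20A and 3 ANKRD30 genes, but these families had only 48 to 608 windows each. Of the windows in NBPF genes 1.05% were hot (3 of 14 genes) and of those in TBC1D3 genes 1.47% (1 of 11 genes), against 0.659% over all protein-coding genes. Zinc finger genes had 0.467% of their windows hot (66 of 503 genes, 13.1%) and olfactory receptor genes 0.305% (8 of 413, 1.94%).

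Genes known for amplification in serous ovarian cancer were looked up from a list chosen with earlier results of these data known, which is given here in part and without a count over the list. MECOM, a transcription factor gene on 3q, had 12 hot windows of 645, and the chromatin remodelling gene RSF1 on 11q had 7 of 179. The receptor gene NOTCH3, PAX8, which marks the Müllerian lineage, and the telomerase gene TERT had 1 each. The cyclin gene CCNE1 had 0 of 14 windows and the receptor gene ERBB2 0 of 47, and MDM2, CCND1, AKT2, PIK3CA, MYCL and URI1 also had 0.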

How the data were processed

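Pt-exo-seq libraries of PEO1 and PEO4 cells were deposited as raw read counts in 1 kb windows stepped by 900 bp, so that neighbours share 100 bp. Per the labels and the study's methods, the authors trimmed reads, aligned them to hg19 with Bowtie2, left out blacklisted regions and removed duplicates with Picard, and the deposited counts were not normalised. The last windows matched GRCh37 chromosome lengths, coordinates are as in the table, whose first windows start at 0, and genes came from GENCODE. CPM were counts divided by the column total. Hot windows, gene lists and domains were chosen with earlier results of these data known.

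Counts of the 9 treated libraries were tested with edgeR 4.0.16 (R 4.3.3; quasi-likelihood, TMM, trended dispersion, 3 groups) for windows averaging 5 or more counts and 100 kb bins averaging 50 or more, with Benjamini-Hochberg adjustment over all features. DESeq2 1.42.0 was an alternative. Domains were compared by exact permutation tests of summed log2 CPM (scipy 1.17.1). Named items were the 10 hottest windows, 10 longest runs, 10 domains with most hot windows and, among domains of at least 20, the 3 highest and 3 lowest untreated line ratios. In the sensitivity settings, the GC correction fitted a spline with 5 degrees of freedom per library. Copies were sought with minimap2 2.31. Repeat masking was not computed because the reference holds upper-case letters alone. Scripts were tested on simulated counts. Some listed genes and 1 sequence are not reported here.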

Additional observations from a re-analysis of the deposited data

How the results depend on the processing

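The number of hot windows depended on the limit: 59417 at 0.8 CPM, 1608 at 1.5 CPM, 308 at 2 CPM and 6920 where both lines had to reach 1.0 CPM, and 18024 to 23196 with 1 untreated library left out. The share with a treated mean of at least 1.0 CPM was 97.2% and 100% at the limits of 1.5 and 2 CPM, 50.4% by the median over the treated libraries, 51.1% with both lines weighted equally (added after the data were seen), and 53.0% to 58.7% with 1 treated library left out. Hot windows called numbered 84 and 146 (PEO4 at 16 and 32 µM against PEO1) with DESeq2's Wald test and 2 at 32 µM with a mean count of at least 1, and 0 with each library left out. Dense bins called numbered 203 and 178 of 250 where a dense bin needed at least 20 hot windows, and 273 to 436 and 277 to 427 with 1 treated library left out; between PEO4 doses they numbered 0 under each alternative. After adjustment over the 15 named domains, 15 passed 0.05, and 12 on TMM-scaled CPM, where the RPTOR, TBCD and PDE4DIP domains did not. With 1 library left out 0 to 15 passed. None passed with 1 PEO4 dose alone or without any PEO1 replicate, where the numbers of libraries cannot reach the threshold, and 13 passed without each of 5 PEO4 libraries, where the RPTOR and TBCD domains did not. All domains kept their direction in these settings.

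Replicate numbers did not pair the libraries: deviations from group means over bins correlated from -0.69 to 0.64 for the same number, with 3 of 9 pairs above 0.1, and 2 of 9 libraries matched their own number best. With the replicate block 319 and 316 dense bins were called (5960 and 5833 of all 28184 bins), 504 and 505 with the block and the GC correction together (7437 and 7488 of all bins), and 0 hot windows. The cause of these changes was not tested. Single-window comparisons rest on counts with a fitted coefficient of variation of 0.822 between replicates, and neighbouring windows share 100 bp.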
